A study of Homo sapiens with 12 samples.

Results

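The receptors described here are 8 genes that neuroblastoma and sympathetic cells use to sense growth and survival factors: RET, its co-receptors GFRA1, GFRA2 and GFRA3, the TRK receptors NTRK2 and NTRK3, the neurotrophin receptor NGFR, and ALK. They were taken as every probe of the deposited intensity table whose gene symbol is one of the 8, which gave 16 of the 47321 probes and 8 of the 20046 named genes: 3 for RET, 4 for GFRA1, 3 for NTRK2, 2 for NTRK3 and 1 each for GFRA2, GFRA3, NGFR and ALK. Expression was measured on 12 single-colour bead arrays of SH-SY5Y cells, a human neuroblastoma line, 4 per group: cells given the SETD1A siRNA s18789, cells given the SETD1A siRNA s18790, and cells given a control siRNA. All 3 groups received Lipofectamine RNAi Max and were harvested 96 hours after transfection. The study asked which transcripts change when SETD1A, a histone H3 lysine 4 methyltransferase linked to schizophrenia, is lowered. All arrays come from this single line, the labels give no siRNA sequence, and no label tells whether replicates were grown or transfected separately. A p-value here therefore reflects only how far these arrays scatter, which could be technical scatter.

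RET is a receptor tyrosine kinase that binds its ligands only together with a GFRA co-receptor, a protein held on the cell surface by a lipid anchor. Each co-receptor has a preferred ligand, neurturin for GFRA2 and artemin for GFRA3, so the co-receptors a sympathetic neuron makes set which ligand its RET can answer. The TRK kinases NTRK2 and NTRK3 bind neurotrophins, NGFR binds all neurotrophins without a kinase of its own, and ALK is a receptor kinase that is mutated to an active form in part of neuroblastomas. SETD1A works in a complex whose CpG-binding subunit leads it to promoters rich in unmethylated CpG.

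The promoter windows of 3 of the genes with signal on these arrays are shown because SETD1A acts at CpG-rich promoters. Each covers 250 bases before to 50 bases after the start that lies farthest upstream, read 5′ to 3′ on the gene's strand from RefSeq on build GRCh38.p14, with every CpG in capitals. They are GFRA3 at chr5:138274572-138274871 on the minus strand, RET at chr10:43076819-43077118 on the plus strand and ALK at chr2:29921537-29921836 on the minus strand.
GFRA3: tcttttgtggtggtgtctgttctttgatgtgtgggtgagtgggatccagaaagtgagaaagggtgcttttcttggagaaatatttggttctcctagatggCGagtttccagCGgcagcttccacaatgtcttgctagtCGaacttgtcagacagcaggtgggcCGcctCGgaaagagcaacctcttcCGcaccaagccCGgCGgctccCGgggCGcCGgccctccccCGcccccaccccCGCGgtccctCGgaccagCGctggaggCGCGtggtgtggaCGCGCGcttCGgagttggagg
RET: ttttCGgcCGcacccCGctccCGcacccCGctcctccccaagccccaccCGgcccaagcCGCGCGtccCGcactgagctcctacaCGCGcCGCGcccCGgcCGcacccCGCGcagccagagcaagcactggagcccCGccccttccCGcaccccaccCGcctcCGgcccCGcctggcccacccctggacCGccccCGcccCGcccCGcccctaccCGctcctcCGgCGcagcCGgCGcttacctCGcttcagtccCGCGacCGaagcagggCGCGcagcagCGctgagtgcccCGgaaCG
ALK: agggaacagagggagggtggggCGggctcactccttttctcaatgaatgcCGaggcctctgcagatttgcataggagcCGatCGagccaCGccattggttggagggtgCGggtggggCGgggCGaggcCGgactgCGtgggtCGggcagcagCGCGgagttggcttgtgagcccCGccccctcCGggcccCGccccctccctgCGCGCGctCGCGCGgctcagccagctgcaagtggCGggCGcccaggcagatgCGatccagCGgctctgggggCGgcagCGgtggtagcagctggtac

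The GFRA3 window held 22 CpG and a GC content of 61.3%, the RET window 41 CpG and 78.7%, and the ALK window 28 CpG and 71.0%. Over the 34943 windows of the promoter table the median was 14 CpG, and 62.4%, 93.3% and 73.9% of windows had fewer CpG than those of GFRA3, RET and ALK. The letters GGGCGG of the GC box, searched on both strands, occurred 1 time in the GFRA3 window and 5 times each in the RET and ALK windows, and 44.9% of all windows held them. TATAAA, the TATA box, was in none of the 3 windows and in 11.6% of all windows, and CACGTG, the E box of MYC proteins, was in none of the 3 and in 7.23% of all. Genes without signal could be as rich in CpG: the NTRK3 window held 30 and the richest of the 4 NTRK2 windows 38. In all, 6 of the 8 genes matched the table, with 14 windows. GFRA2, which had signal, and NGFR had none. The other window of RET held 10 CpG, and the other window of ALK held 2 CpG and 1 CACGTG.

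Of the 16 probes, 6 passed the filter of a detection p under 0.01 on at least 4 of the 12 arrays, namely the 3 RET probes and those of GFRA2, GFRA3 and ALK. The detection p is the share of negative control beads at least as bright. RET, GFRA2 and ALK had a detection p of 0 on every array, whereas GFRA3 passed only through the 4 control arrays. All 10 probes of GFRA1, NTRK2, NTRK3 and NGFR failed the filter.

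**Figure D1:**
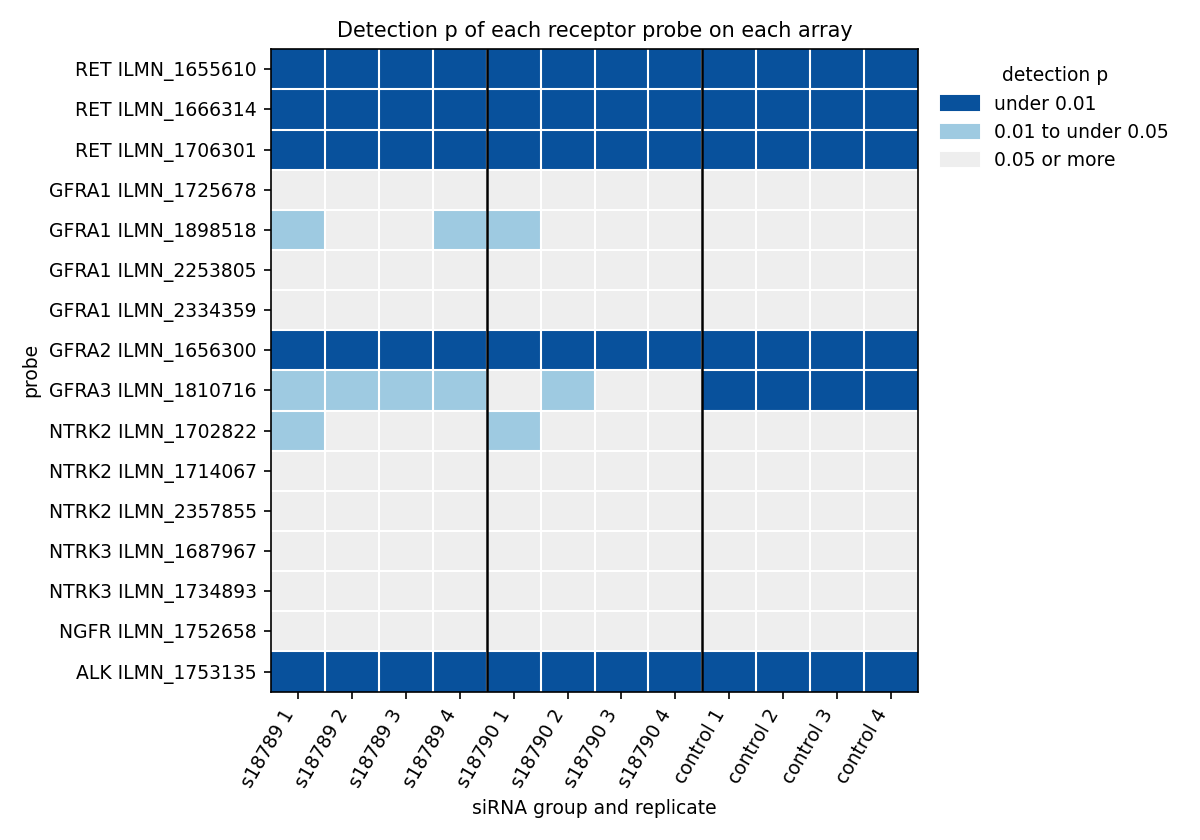
Detection p of the 16 receptor probes (rows) on the 12 arrays (columns, by siRNA group and replicate), in 3 classes: under 0.01 in dark blue, 0.01 to under 0.05 in light blue, and 0.05 or more in grey. RET, GFRA2 and ALK were under 0.01 on all arrays and GFRA3 on the 4 control arrays, while no reading of the other 10 probes was under 0.01.

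The arrays had median intensities of 63.1 to 70.2 and 29.1% to 33.6% of probes detected. On the first principal component, which held 60.6% of the variance, s18790 replicate 2 (-83.7) and control replicate 4 (-26.8) lay apart from the other arrays, which ranged from -12.7 to 23.7. Markers of sympathetic neuroblastoma were detected on all 12 arrays for 12 of the 13 genes measured, and the exception was TH, the enzyme that starts catecholamine synthesis. Of Schwann or glial markers 0 of 3 and of blood markers 0 of 4 were detected on any array; of epithelial markers EPCAM alone was, on some arrays. The summed intensity of 6 kept mesenchymal neuroblastoma markers was 5090 to 6060 with s18789, 5850 to 7040 with s18790 and 6230 to 6690 in controls, so s18789 lay below the controls on every array; PRRX1, FN1 and CD44 of that list were detected on none. The part of that difference in the results below was not tested. Fewer cells of a kind and less RNA per cell cannot be told apart in these bulk samples.

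SETD1A was lower than every control value on all arrays of both siRNAs. Groups did not overlap, in either direction, for 7.08% of all kept probes with s18789 and for 13.3% with s18790. Its log2 level was 7.34, 7.22, 7.10 and 7.30 with s18789, and 6.98, 7.45, 6.90 and 6.83 with s18790, against 7.52, 7.64, 7.50 and 8.03 in controls. The difference from control was -0.43 ± 0.15 (SE, limma adjusted p = 0.616) with s18789 and -0.63 ± 0.15 (adjusted p = 0.0276) with s18790; an exact 2-sided permutation test over arrays gave p = 0.0286 for each, the smallest that 4 against 4 arrays allow. The s18790 call was lost without s18790 replicate 1 (0.0728) or 4 (0.0660), without control replicate 1 (0.0505) or 2 (0.0682), and with the replicate number as a block (0.0510).

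In the fit over all 15922 kept probes, GFRA2 rose and GFRA3 fell with s18790, no receptor probe passed the test with s18789, and GFRA2 differed between the siRNAs. Called means a limma p under 0.05 after Benjamini-Hochberg adjustment. For s18790 against control 2 of the 6 kept receptor probes were called, beside 8.32% of all kept probes: 1 was higher, beside 4.03% of all, and 1 lower, beside 4.29%. At an unadjusted p under 0.05 there were 3 of 6, beside 24.9%. For s18789 against control 0 of 6 were called, beside 0.0942% of all. At an unadjusted p under 0.05 the s18789 counts were 4 of 6 and 6.02%, and with the deposited log2 values the receptor count was also 0. Between the siRNAs 1 of 6 was called, higher with s18790, beside 4.2% of all in either direction, 2.34% higher and 1.85% lower. It was also the 1 probe with an unadjusted p under 0.05, beside 21.6% of all. The moderated F test over the 3 groups called GFRA2 (adjusted p = 0.000797) and GFRA3 (0.0126), beside 6.27% of all probes. GFRA3 passed the filter through the controls alone, so it had to lie lower in the other groups, and these counts are a description.

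**Figure D2:**
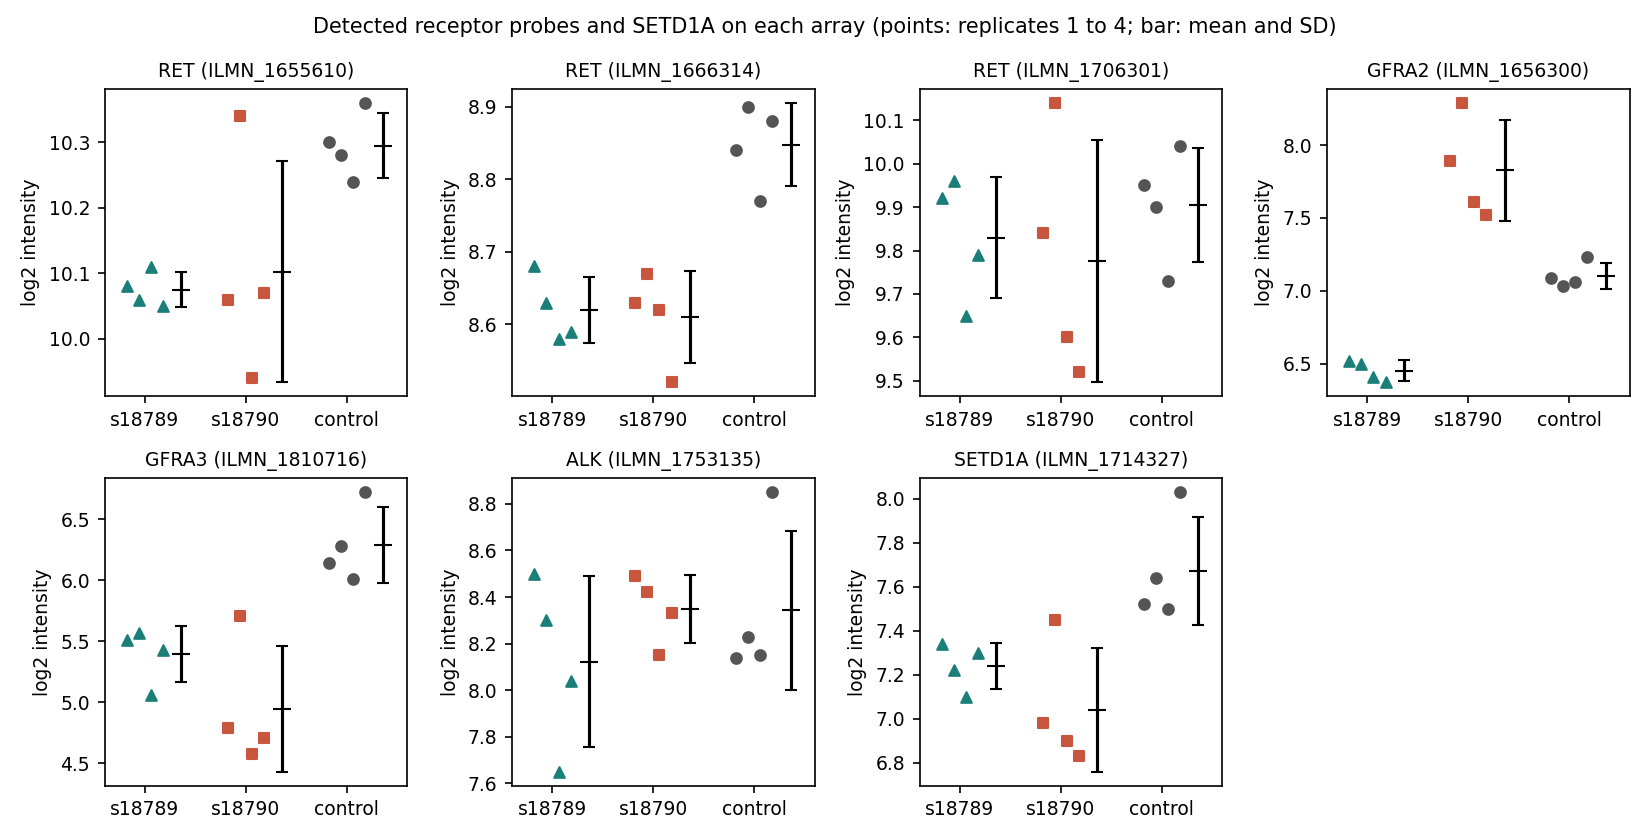
Log2 intensity of the 6 kept receptor probes and SETD1A on each array, by group (s18789, s18790, control); points are replicates 1 to 4 from left to right and bars show mean and SD. GFRA2 lies lowest with s18789 (6.37 to 6.52), highest with s18790 (7.52 to 8.29) and between them in controls (7.03 to 7.23), while GFRA3 lies below every control value with both siRNAs.

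GFRA2, the neurturin co-receptor, stood below control with s18789 and above it with s18790. Its log2 level was 6.52, 6.50, 6.41 and 6.37 with s18789 (replicates 1 to 4), and 7.89, 8.29, 7.61 and 7.52 with s18790, against 7.09, 7.03, 7.06 and 7.23 in controls. All 4 s18789 values lay below the lowest control and all 4 s18790 values above the highest, so the 3 groups did not overlap. The groups did not overlap for 7.08% of all kept probes with s18789, for 13.3% with s18790 and for 14% between the siRNAs.

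With s18790, GFRA2 was 1.65-fold higher than control (log2 0.72 ± 0.15 SE, 95% interval 0.40 to 1.04, n = 4 against 4, limma adjusted p = 0.0115). With s18789 it stood at 63.6% of control (log2 -0.65 ± 0.15, interval -0.97 to -0.33), which had an unadjusted limma p of 0.000738 but did not pass over all probes (adjusted p = 0.186). The s18789 difference passed in 4 of 23 alternatives and did not in 19, where the adjusted p reached 0.711 with median scaling. Without s18790 replicate 2, the array with the lowest mean correlation with its group (0.928), the s18789 difference was again -0.65 and passed (0.0138). Between the siRNAs, s18790 over s18789, the ratio was 2.59-fold (log2 1.37 ± 0.15, interval 1.05 to 1.69, adjusted p = 0.000822). By p this was the probe ranked 10 of 15922 in that comparison, and 0.0628% of probes had a larger absolute difference. The difference between the siRNAs kept its call under all 23 alternatives, with log2 values of 0.97 to 1.48 and adjusted p of 3.31e-05 to 0.012.

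The order of GFRA2 was thus s18790, control, s18789, with no overlap between neighbours, and of the comparisons with control only that of s18790 passed the test. In raw intensity, before any normalization, GFRA2 read 132.0 to 136.8 with s18789 and 176.0 to 338.6 with s18790, against 165.8 to 197.0 in controls. The s18789 arrays lay below the controls on this scale too. The raw s18790 values overlapped with the controls through replicate 4 (176.0), the s18790 array with the lowest median intensity (63.1). The s18790 call was lost with median scaling (0.61, adjusted p = 0.0655), a scaling that put the median of all kept probes at -0.08, and with only those groups in the fit (0.72, 0.0632).

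GFRA3, the artemin co-receptor, read lower with both siRNAs. Its probe passed the filter through the controls alone, so this direction was set by the filter and its test is a description. Its log2 level was 5.51, 5.57, 5.06 and 5.43 with s18789, and 4.79, 5.71, 4.58 and 4.71 with s18790, against 6.14, 6.28, 6.01 and 6.72 in controls. No s18789 or s18790 value reached the lowest control value. Of all kept probes, 7.08% had no overlap with control with s18789 and 13.3% with s18790. The highest s18790 value was that of replicate 2 and the highest control value that of replicate 4, which are the arrays that lay apart.

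The GFRA3 probe was above background on all 4 control arrays, with detection p of at most 0.0026, and on no array of either siRNA. Its detection p was 0.01039 to 0.04805 with s18789 and 0.01429 to 0.37532 with s18790. The level with either siRNA is therefore a bound, set on each array at the probe's own level or the lowest level among detected probes, whichever is higher. The folds given here compare group means and leave out the scatter between arrays. GFRA3 was at least 1.5-fold lower with s18790 (measured log2 means 4.95 against 6.29 in controls, limma adjusted p = 0.00513). With s18789 it was at least 1.65-fold lower (measured means 5.39 against 6.29), and this did not pass (adjusted p = 0.316, unadjusted 0.0023). The bound for s18790 is the smaller although its measured mean is lower, because the lowest detected level was higher on its arrays (5.55 to 5.87, against 5.49 to 5.63 with s18789).

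Because the filter took this probe through the controls alone, its test and the repeats of it are a description. Over the 22 alternatives in which the probe was tested the measured log2 difference with s18790 was -1.61 to -0.67 (adjusted p of 3.13e-05 to 0.0314), and where detection on all 12 arrays was required it was untested. The s18789 difference passed in 3 of these 22 and did not in 19. It passed without s18790 replicate 2 (-0.90, adjusted p = 0.0272). It also passed without that array and control replicate 4 (-0.76, 0.0218). Neither siRNA group had an array with a detection p under 0.01, although all 4 s18789 arrays and 1 of 4 s18790 arrays were under 0.05, so no difference is given between s18790 and s18789. GFRA3 thus stood highest in controls, with no order between the siRNA groups.

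**Figure D3:**
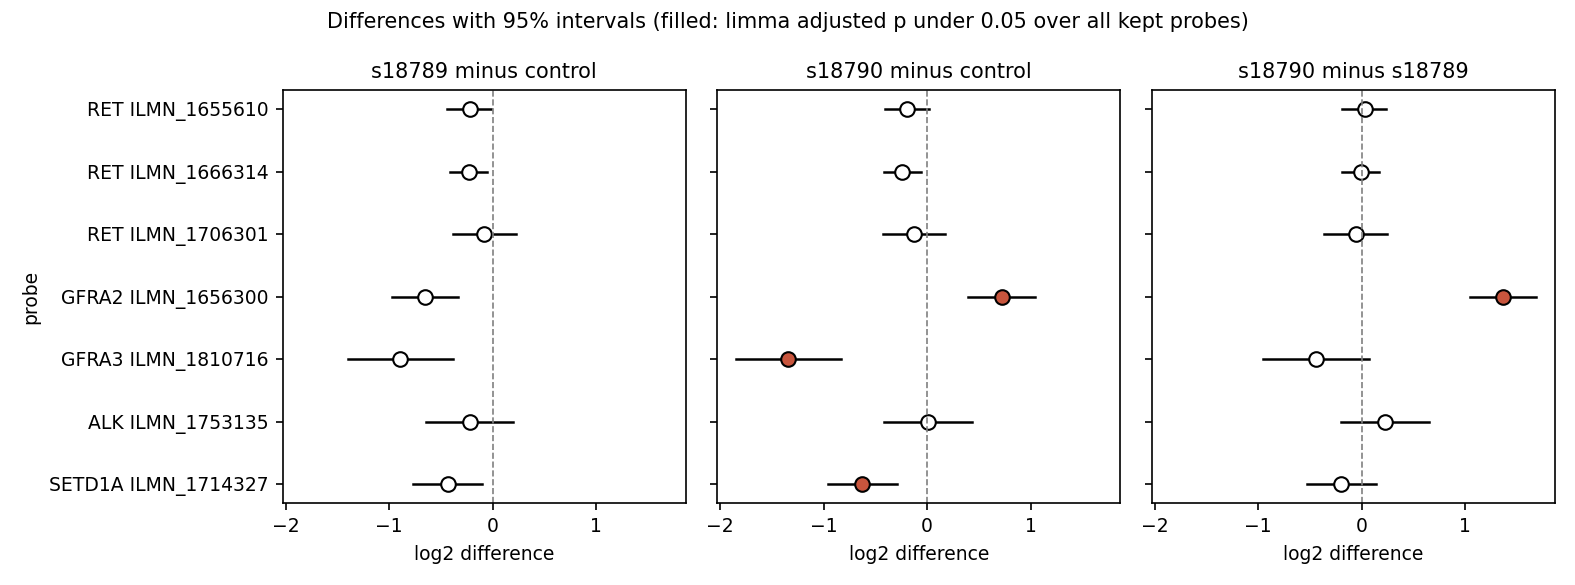
Log2 differences (x axis) with 95% intervals for the 6 kept receptor probes and SETD1A in s18789 minus control, s18790 minus control and s18790 minus s18789; filled points have a limma adjusted p under 0.05 over all kept probes. GFRA2 stands at -0.65, 0.72 and 1.37 in the 3 panels and GFRA3 at -0.89 and -1.34 against control, from siRNA values not above background, while the RET and ALK points lie between -0.24 and 0.23.

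GFRA1, the third co-receptor measured, gave no signal above background in any group. Its 4 probes read 45.1 to 86.6 in raw intensity and none had a detection p under 0.01 on any array. The lowest were those of probe ILMN_1898518 on s18789 replicate 1 (0.01039) and s18789 replicate 4 (0.02597).

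RET itself, the shared kinase of the co-receptors, stood slightly below control with both siRNAs, and no RET probe passed the test. Probe ILMN_1655610 (annotated to NM_020630, the transcript of the RET protein with the shorter tail) read 10.08, 10.06, 10.11 and 10.05 with s18789, and 10.06, 10.34, 9.94 and 10.07 with s18790, against 10.30, 10.28, 10.24 and 10.36 in controls. All s18789 values lay below the controls, and with s18790 replicate 2 alone lay within their range. Of all kept probes, 7.08% had no overlap between s18789 and control. The differences from control were -0.22 ± 0.10 with s18789 (limma adjusted p = 0.808) and -0.19 ± 0.10 with s18790 (0.252); with s18790 it passed when arrays were weighted (-0.25, 0.0413).

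Probe ILMN_1666314 (annotated to NM_020975, the transcript of the longer tail) read 8.68, 8.63, 8.58 and 8.59 with s18789, and 8.63, 8.67, 8.62 and 8.52 with s18790, against 8.84, 8.90, 8.77 and 8.88 in controls. Neither siRNA group overlapped with the controls, which also held for 7.08% of all kept probes with s18789 and 13.3% with s18790. The difference was -0.23 ± 0.08 with s18789 (interval -0.41 to -0.05, adjusted p = 0.626) and -0.24 ± 0.08 with s18790 (interval -0.42 to -0.06, adjusted p = 0.1). With s18790 it passed when arrays were weighted (-0.25, 0.0371) or when no detection filter was set (-0.24, 0.0291).

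Probe ILMN_1706301, annotated to the same longer transcript, did not separate the groups. It read 9.92, 9.96, 9.65 and 9.79 with s18789, and 9.84, 10.14, 9.60 and 9.52 with s18790, against 9.95, 9.90, 9.73 and 10.04 in controls. Its differences from control were -0.08 ± 0.14 with s18789 (limma adjusted p = 1) and -0.13 ± 0.14 with s18790 (0.599), with intervals of -0.38 to 0.23 and -0.43 to 0.17 that contain the values of the other RET probes. Between the siRNAs the RET probes differed by 0.03, -0.01 and -0.05, with intervals from -0.36 to 0.25. For RET the control group was thus the highest on all 3 probes, by at most 0.24 on the log2 scale, and s18790 and s18789 did not differ beyond their spread.

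The TRK receptors and NGFR were at background in all groups. NTRK2 was read by 3 probes, among them one annotated to the full-length receptor (ILMN_1702822) and one to a truncated form without the kinase (ILMN_1714067); NTRK3 was likewise read by a full-length probe (ILMN_1734893) and a truncated one (ILMN_1687967). Raw intensities of NGFR were 60.9, 62.6, 52.6 and 60.2 with s18789, and 64.9, 70.5, 59.4 and 55.1 with s18790, against 55.7, 61.2, 64.2 and 61.7 in controls. The groups overlapped and every NGFR detection p was at least 0.08831.

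Over the 120 readings of the 10 probes of GFRA1, NTRK2, NTRK3 and NGFR, 0 had a detection p under 0.01 and 5 (4.17%) one under 0.05. These 5 readings belonged to GFRA1 probe ILMN_1898518 (3) and NTRK2 probe ILMN_1702822 (2). When all 47321 probes were tested without a filter, none of the 10 was called in any of the 3 comparisons, with log2 differences between -0.33 and 0.33. At an unadjusted p under 0.05 there were 0 of 10 with s18789, 1 with s18790 (a GFRA1 probe, -0.22) and 1 between the siRNAs (an NTRK3 probe, 0.16). No change of these 4 genes was detectable at this signal, which does not show that they are absent.

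ALK was detected on every array, and none of its differences passed the test. Its log2 level was 8.50, 8.30, 7.65 and 8.04 with s18789, and 8.49, 8.42, 8.15 and 8.33 with s18790, against 8.14, 8.23, 8.15 and 8.85 in controls. The groups overlapped, and control replicate 4 alone stood far above its group. The differences were -0.22 ± 0.20 with s18789 (interval -0.64 to 0.20, limma adjusted p = 1), 0.01 ± 0.20 with s18790 (interval -0.42 to 0.43, adjusted p = 0.989) and 0.23 ± 0.20 between the siRNAs (interval -0.20 to 0.65, adjusted p = 0.511). The order s18790, control, s18789 of the means (8.35, 8.34 and 8.12) therefore had no neighbours that differed beyond their spread.

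**Figure D4:**
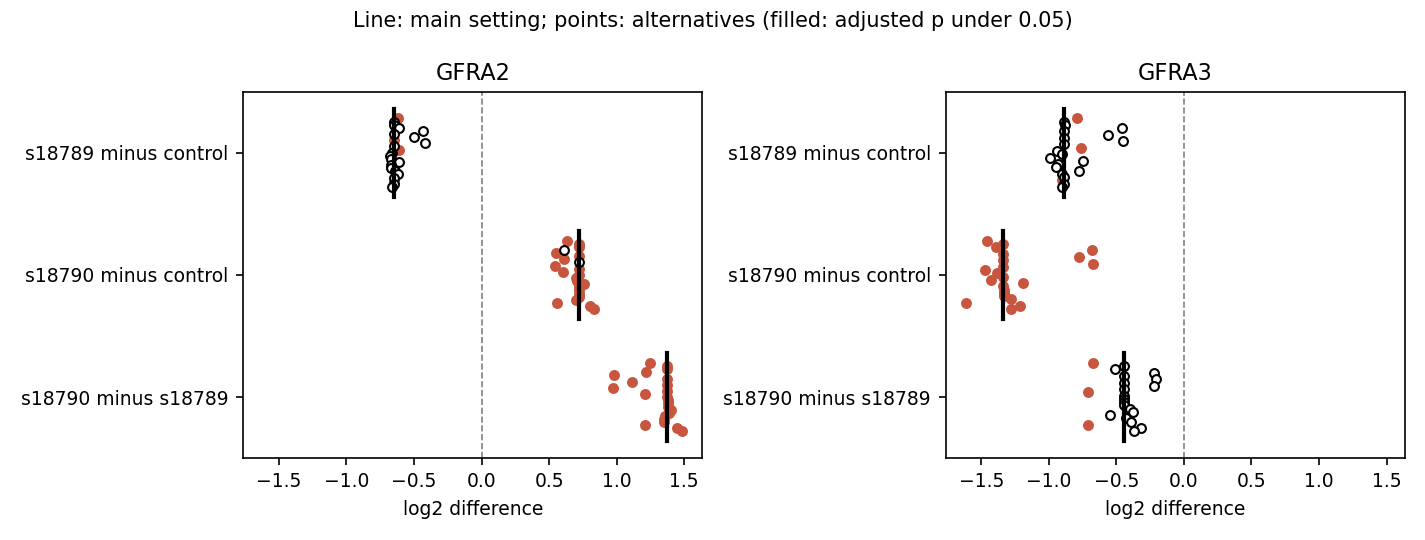
Log2 differences of GFRA2 (left) and GFRA3 (right) in the 3 comparisons under the main setting (vertical line) and each alternative (points, filled where the adjusted p is under 0.05). All GFRA2 points lie between -0.68 and -0.42 for s18789 minus control and between 0.54 and 0.83 for s18790 minus control, and all GFRA3 points of both comparisons with control lie below 0.

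Other genes of these pathways were taken from 7 lists, of which 75 genes had a kept probe. With s18789, limma called 0 of 75 (beside 0.0942% of all kept probes), and 7 had an unadjusted p under 0.05 (9.33%, beside 6.02% of all). With s18790, 7 rose and 1 fell, 10.7% of the 75, close to the 8.32% of all kept probes. Between the siRNAs 5 were higher and 2 lower with s18790, 9.33% of the 75 beside 4.2% of all. LINGO1, counted as higher in both of these comparisons, would not have passed the filter without the s18790 arrays. ERBB2, counted as lower in both, passed it through the s18789 and control arrays alone. The comparisons with control share the same control arrays. Without both arrays that lay apart the called counts were 17 with s18790, where 17.4% of all kept probes were called, and 12 between the siRNAs, where 10.2% were. With s18790 the count was 13 without s18790 replicate 3, 5 without s18790 replicate 1 or control replicate 2, and 4 without control replicate 3. Between the siRNAs it was 16 without s18790 replicate 3, 4 without s18789 replicate 2, and 3 without s18789 replicate 3 or 4 or s18790 replicate 1.

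ARTN (artemin), NRTN (neurturin) and PSPN (persephin), ligands of RET with its co-receptors, were detected on 0 of 12 arrays, as was the co-receptor GFRA4. Of the 9 genes in this list on the array 2 were kept. NCAM1, a cell adhesion molecule that can also bind RET ligands, stood at -0.12 with s18789 and -0.07 with s18790 and was not called. SORL1, a sorting receptor, rose with s18790 (0.56 ± 0.13, limma adjusted p = 0.0235, median scaling 0.43, 0.167) and was higher with s18790 than with s18789 (0.74 ± 0.13, 0.0107). Its call against control was lost in 4 of 22 alternatives, among them without control replicate 2 (0.46, 0.0786) or s18790 replicate 1 (0.47, 0.0723). The SORL1 call between the siRNAs was lost in 1 of 22.

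Of 8 neurotrophin genes and receptors on the array 4 were kept, and BDNF and NTF4, ligands of NTRK2, were detected on no array. LINGO1 and RTN4R, parts of a receptor complex for myelin inhibitors in which NGFR can take part, rose with s18790, by 1.09 ± 0.24 (limma adjusted p = 0.0174) and 0.74 ± 0.17 (0.0221). LINGO1 was above background on 1 of 4 s18789 arrays and 4 of 4 s18790 arrays, against 1 of 4 control arrays. It was also 1.15 ± 0.24 higher with s18790 than with s18789 (0.0212). Since 3 of the 4 values in the s18789 and in the control group were not above background, the sizes of both LINGO1 differences are uncertain. LINGO1 passed the filter of 4 arrays only with the help of the s18790 arrays, where it was high, so its calls are a description. TNFRSF19, a receptor of the same family as NGFR, was lower with s18790 than with s18789 (-0.50 ± 0.10, 0.0195) and was not called against control (0.20 and -0.30). LINGO1 lost its call against control in 3 of 22 alternatives, among them without control replicate 1 (0.0517) or 3 (0.0581). RTN4R lost it in 5 of 23, among them without control replicate 1 (0.0710), 2 (0.0704) or 3 (0.0704) or s18790 replicate 4 (0.0539). Between the siRNAs LINGO1 lost it in 5 of 22, among them without s18789 replicate 3 (0.0742) or 4 (0.0755) or s18790 replicate 1 (0.0625). TNFRSF19 lost its call in 6 of 23, among them without any 1 s18789 array (0.0541 to 0.0717) or s18790 replicate 1 (0.0659).

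Of the ALK list, the growth factors MDK and PTN were kept and neither was called. MDK (midkine) stood at -0.31 with s18789 (limma adjusted p = 0.474) and -0.10 with s18790 (0.535), and PTN (pleiotrophin) at -0.10 (1) and -0.29 (0.258). ALKAL2, a ligand of ALK, was detected on 2 s18789 arrays and on no other.

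Adaptors and signal proteins downstream of the receptors showed 0 calls among 26 kept genes in any comparison, with medians of -0.01 with s18789 and -0.02 with s18790 (all probes 0.01). The largest values with s18790 were DOK6 (-0.83, limma adjusted p = 0.151), an adaptor that binds RET, PTPN11 (-0.47, 0.421), a phosphatase of RAS signalling, and SH2B2 (0.39, 0.164), an adaptor of receptor kinases.

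Among 14 kept feedback and response genes JUN, an AP-1 subunit, rose with s18790 (1.04 ± 0.17, limma adjusted p = 0.00339), as did SPRY4, an inhibitor of receptor kinase signalling (0.74 ± 0.16, 0.0167), and 12 did not pass. With s18789 JUN stood at 0.48 (limma adjusted p = 0.622) and SPRY4 at 0.26 (0.997) against control, neither of them called. Between the siRNAs JUN (0.57, 0.0828) and SPRY4 (0.48, 0.112) were not called. The list median was 0.13 with s18790 and 0 with s18789. SPRY4 lost its call without s18790 replicate 1 (0.0557) or control replicate 2 (0.0583) or 3 (0.0565) and with median scaling (0.63, 0.0562).

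Of 16 other receptor tyrosine kinases with a kept probe, ERBB2 read lower with s18790. Its probe was above background on 4 of 4 s18789 arrays and 0 of 4 s18790 arrays, against 4 of 4 control arrays. The probe thus passed the filter only through the groups where it was high, so its calls are a description. By group means, ERBB2 was at least 1.1-fold lower with s18790 than in controls (measured log2 means 5.03 and 5.85, limma adjusted p = 0.0046). It was at least 1.05-fold lower than with s18789 (0.0135). Like those of GFRA3, these bounds leave out the scatter between arrays. The ERBB2 call between the siRNAs was lost in 1 of 22 alternatives (limma adjusted p = 0.0529). TYRO3 was 0.64 ± 0.16 higher with s18790 than with s18789 (0.0485), a call that 14 of 23 alternatives lost, among them 9 of the 12 that leave out an array (any 1 s18789 array, s18790 replicate 1 or 4, or control replicate 1, 2 or 3; adjusted p of 0.0511 to 0.144). The list medians were -0.10 with s18789 and -0.04 with s18790.

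Among 11 kept regulators named with RET or TRK genes, MYCN, a transcription factor amplified in part of neuroblastomas, rose with s18790 (1.35 ± 0.14, limma adjusted p = 0.000262) and was higher with s18790 than with s18789 (0.87 ± 0.14, 0.0067). With s18789 MYCN stood at 0.48 against control and was not called (limma adjusted p = 0.422). GATA3, a transcription factor of sympathetic neurons, rose with s18790 (0.45 ± 0.10, 0.0196). RXRA, a retinoid receptor, was higher with s18790 than with s18789 (0.71 ± 0.15, 0.0222) and stood at -0.26 and 0.45 against control, neither of them called. GATA3 lost its call in 4 of 23 alternatives, among them without control replicate 3 (0.0694) or s18790 replicate 1 (0.0548) and with median scaling (0.40, 0.156). RXRA lost its call in 6 of 23, among them without s18789 replicate 2 (0.0579), 3 (0.0827) or 4 (0.0755). It also lost it without s18790 replicate 1 (0.0687) and with median scaling (0.55, 0.107).

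The genes most like each receptor over the 12 arrays were found by Pearson correlation of log2 levels with all other named kept probes. The arrays form 3 groups, so these values can follow the order of the group means, and no correlation within groups was computed. They are a description, and the changes of genes chosen this way have no test. For GFRA3 the gene with the highest correlation was SETD1A itself (r = 0.977, and 0.98 over the 10 arrays without control replicate 4 and s18790 replicate 2), followed by METTL25B (0.968) and UBAC2 (0.964). Of the 12 GFRA3 values, the 8 with an siRNA against SETD1A were not above background, and the controls stood above both siRNA groups. Control replicate 4 was highest in its group for SETD1A and GFRA3 (8.03 and 6.72), as was s18790 replicate 2 (7.45 and 5.71). With s18789 the highest arrays differed (replicate 1 for SETD1A, replicate 2 for GFRA3). How far the correlations rest on the group difference was not tested.

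**Figure D5:**
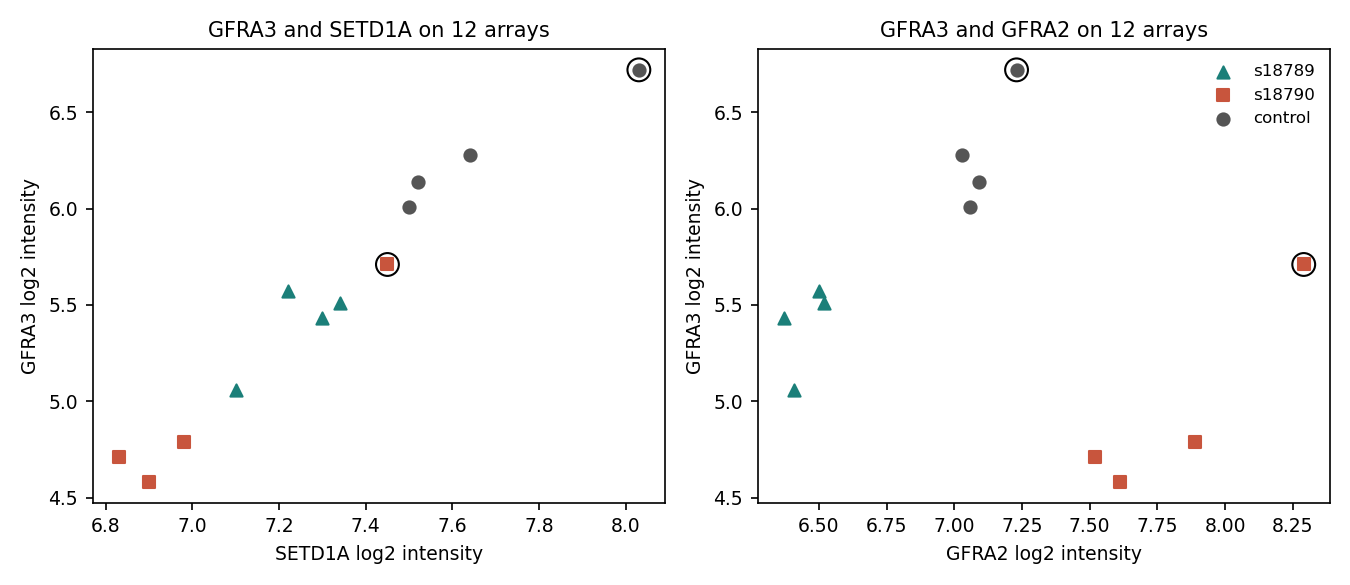
GFRA3 log2 intensity against SETD1A (left) and GFRA2 (right) log2 intensity on the 12 arrays, by siRNA group; rings mark control replicate 4 and s18790 replicate 2, the arrays that lay apart. All 4 control arrays lie above both siRNA groups on the GFRA3 and SETD1A axes, the GFRA3 values of both siRNA groups are not above background, and GFRA2 places s18789 at its low end and s18790 at its high end.

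For GFRA2 the nearest genes were GPER1, a membrane receptor for estrogen (r = 0.98, and 0.978 over those 10 arrays), EPAS1, a transcription factor of the hypoxia response (0.972), and GCGR, the glucagon receptor (0.968). Like GFRA2, these stood below control with s18789 (-0.50, -0.50 and -0.36) and above it with s18790 (0.61, 0.36 and 0.65). The RET probes were nearest to TUT1 (0.948), WDR86 (0.946) and FSTL3 (0.941) for ILMN_1655610, to PSME1 (0.956), TRPT1 (0.942) and MTFMT (0.939) for ILMN_1666314, and to ANKS1A (0.958), CENPBD1P (0.948) and GEMIN4 (0.936) for ILMN_1706301. No gene was shared between the RET probes' lists of 3. For ALK the highest values were lower, with DPAGT1 (0.887), RBM23 (0.886) and ZSWIM4 (0.87), and 0.832, 0.802 and 0.858 over the 10 arrays.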

How the data were processed

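Mean bead intensities per probe were deposited, with no normalization between arrays, as their values show; the submitters' processing notes name GenomeStudio. Each deposited intensity has a detection p-value, per the file headers. A second deposited table holds log2 values with 1 distribution on all arrays. Its transform was not given in the sources used, and it served as an alternative. Slides are not given either.

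A probe table paired 30113 probes with 1 gene symbol and 8 with several, and 17200 are unnamed here. With limma 3.58.1 in R 4.3.3, intensities were background-corrected (normexp through the detection p-values, offset 16), quantile-normalized and put on the log2 scale. A probe was kept with detection p under 0.01 on at least 4 arrays, which left 15922. A single model with a mean per group (9 residual degrees of freedom) was tested with lmFit and eBayes, and p-values were adjusted over all kept probes. Of several kept probes of a pathway gene, that with the highest mean stood for it. The procedure was tested on simulated data. The number of arrays limits the precision.

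The receptors, the pathway lists and the rules were chosen with earlier results of these data known. Genes named are all receptor probes, SETD1A, the list genes called in any comparison (otherwise the 3 largest changes with s18790), the ligands ARTN, BDNF and ALKAL2, and the 3 nearest genes of each kept receptor probe. NRTN, PSPN, GFRA4, NTF4, NCAM1, MDK and PTN were named after their values were seen.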

Additional observations from a re-analysis of the deposited data

Results flagged for a closer look

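GFRA2 differed between the SETD1A siRNAs by a direct test: s18790 minus s18789 was 1.37 on the log2 scale (limma adjusted p = 0.000822), with means of 7.83 for s18790, 6.45 for s18789 and 7.10 for control. ALK on control replicate 4, at 8.85 against 8.14 to 8.23 on the other controls, stood apart from its group. Of 21 combinations of probe and group looked at for such a value, 1 was found, and chance gives about 1 in 20 groups.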

How the results depend on the processing

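23 alternatives were run, each changing 1 choice; leaving out both arrays that lay apart was chosen after seeing the data. The cause of the changes was not tested. GFRA2 between the siRNAs kept its call under all 23. The count of called receptor probes for s18789 against control (0) was 2 with array weights, 1 with only the groups compared, 2 without both arrays and 0 to 2 with an array left out (2 without s18790 replicate 2). For s18790 against control (2) it was 1 with median scaling, 1 where detection on all 12 arrays was required (which drops GFRA3), 3 without a detection filter, 4 with array weights, 1 with only the groups compared, and 2 whichever array was left out. Between the siRNAs (1) it was 2 with array weights, 2 without both arrays and 1 to 2 with an array left out (2 without s18790 replicate 2); the added probe is GFRA3, not above background in either group. By the F test (2) it was 3 without a detection filter, 1 with detection on all 12 arrays and 4 with array weights. SETD1A with s18790 (-0.63) did not pass without a detection filter (-0.63, limma adjusted p = 0.0502), with only the groups compared (-0.63, 0.0999) or with the replicate number as a block (-0.63, 0.051), and ranged from -0.76 to -0.51 with an array left out. Same-numbered samples of different groups correlated at -0.58 to 0.58 in their deviations from the group means, over 0.1 in 6 of 12 pairs, so the numbers were not taken to pair the samples. The replicate block changed no count of called receptor probes, and took the calls over all probes to 3, 834 and 296 for s18789 against control, s18790 against control and s18790 against s18789, from 15, 1325 and 668. Those counts were 385, 3117 and 1577 with array weights, 123, 2764 and 1623 without both arrays, 41, 430 and 200 with only the groups compared, and 3 to 80, 589 to 1794 and 205 to 1087 with an array left out. Called pathway genes for s18789 (0) were 4 with array weights. For s18790 (8) they were 5 with median scaling, 20 with array weights, 4 with only the groups compared, 17 without both arrays and 4 to 13 with an array left out. Between the siRNAs (7) they were 4, 13, 2, 12 and 3 to 16 in the same order. Median scaling put the median of all kept probes at 0.08, -0.08 and -0.14 in the 3 comparisons, against 0.01 each, and the split of higher to lower calls with s18790 at 173 to 636, against 642 to 683, and between the siRNAs at 102 to 591, against 373 to 295. Uncalled values near 0 changed sign. RET ILMN_1655610 between the siRNAs (0.03) was -0.11 with median scaling, -0.04 with array weights, -0.05 without s18790 replicate 2 and -0.05 without both arrays. RET ILMN_1666314 between them (-0.01) was 0.01 to 0.02 without s18789 replicate 1 or s18790 replicate 4. RET ILMN_1706301 was 0.02 for s18789 against control with median scaling (-0.08), and 0.01 to 0.03 between the siRNAs without s18790 replicate 3 or 4 (-0.05; -0.17 to 0.03 with an array left out). ALK with s18790 (0.01) was -0.11 with median scaling, and -0.04, -0.02, -0.06, -0.03 and -0.06 without s18790 replicate 1 or 2 or control replicate 1, 2 or 3 (-0.06 to 0.18 with an array left out). Signal over background limits GFRA3 to a bound with either siRNA, and leaves GFRA1, NTRK2, NTRK3 and NGFR unmeasured.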
